A study of Mus musculus with 6 samples.

Results

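The cell cycle and proliferation genes described here are 45 genes of the deposited table of normalized counts, taken by gene name out of 23934 genes. They were split by role into 4 inhibitors of cyclin-dependent kinases, 10 genes of the G1 phase and the Rb-E2F switch, 14 genes of S phase and 17 genes of G2 and M phase. RNA was sequenced from sorted skin cells of 3 Zfp750 knockout and 3 control samples at day 50. All 6 samples carry the recombinase driven from the Lrig1 locus on 1 allele, labelled Lrig1-CreERT2 in 4 samples and Lrig1-CreER in the other 2, which 4-hydroxytamoxifen switches on. This drug was given from day 4 to 7 or from day 5 to 8 of age. The knockout samples are labelled ZNF750 fl/fl with Rosa26 -/-. Of the control samples, 2 are labelled wt/fl with Rosa26 -/- and 1 is labelled wt/wt with Rosa26 +/-, so that the controls also received the drug and the recombinase. The labels describe the cells as expressing tdTomato and do not tie that reporter to the Rosa26 genotype.

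Cyclins of the D type bind Cdk4 and Cdk6 in G1 and start the phosphorylation of the retinoblastoma protein, which frees E2F factors to switch on the genes of DNA replication. Genes of G2 and M phase follow later under other factors, and inhibitors such as p21, p27 and p57 hold the kinases back. In skin, dividing cells lie mainly in the basal epidermis, in the sebaceous gland margin and in the matrix of the growing hair follicle, while most dermal fibroblasts divide rarely.

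Estimated depth was 15310170 to 20705368 reads per library. The libraries are named S5, S6 and S7 (knockouts) and S2, S3 and S4 (controls), and the 3 values of a group are always in that order. Zfp750 had 4.90, 1.82 and 7.16 normalized counts in the knockouts and 41.9, 3.75 and 314 in the controls. The value in control S3 falls between those of knockouts S6 and S5 and is no check on the group of that library. Lrig1, whose locus drives the recombinase, had 1844, 1577 and 2089 in the knockouts and 1848, 584.5 and 2082 in the controls. Fibroblast transcripts were abundant throughout: the 6 markers Col1a1, Col1a2, Col3a1, Pdgfra, Dcn and Lum summed to 905440 to 1191530 in the knockouts and to 2971210 to 8902030 in the controls. The 3 collagen genes made up most of this sum and were lower in every knockout without passing the test, Dcn and Lum overlapped between the groups, and the receptor gene Pdgfra rose (26291 ± 2887 in knockouts and 11100.0 ± 332 in controls, SD, n = 3 each; limma log2 fold change 1.24 ± 0.21, adjusted p = 0.0165). In bulk samples of this kind, fewer cells of a type and less RNA per cell cannot be told apart. Normalized counts are not divided by gene length, so levels are compared between libraries and not between genes.

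Of the 45 genes, 1 changed in the knockout. Ccnd1, which encodes cyclin D1, fell, and 0 genes rose. The filter on low values, which asked that 3 of the 6 libraries reach 1 per 1000000 of their total, was passed by 42 of the 45 genes, and none of these passed it through 1 group alone. The 3 that did not pass, Bub1, Aurka and Ube2c, all act in mitosis. The limma test with Benjamini-Hochberg adjustment over 15935 genes called 2.59% of all genes lower and 4.12% higher, and at an unadjusted p under 0.05 it had 5 of the 42 cell cycle genes against 23.2% of all genes. All 5 were among the 10 G1 genes, 4 lower and 1 higher in the knockout. Fold changes are differences of the group means of log2(normalized count + 9.15), which understates those of low genes. Their median over the 42 was -0.05, against 0.01 over all tested genes. The knockout libraries lay wholly below the controls for 5 of the 42 genes and wholly above for 1, where 13.1% and 15.7% of all tested genes did so.

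**Figure D1:**
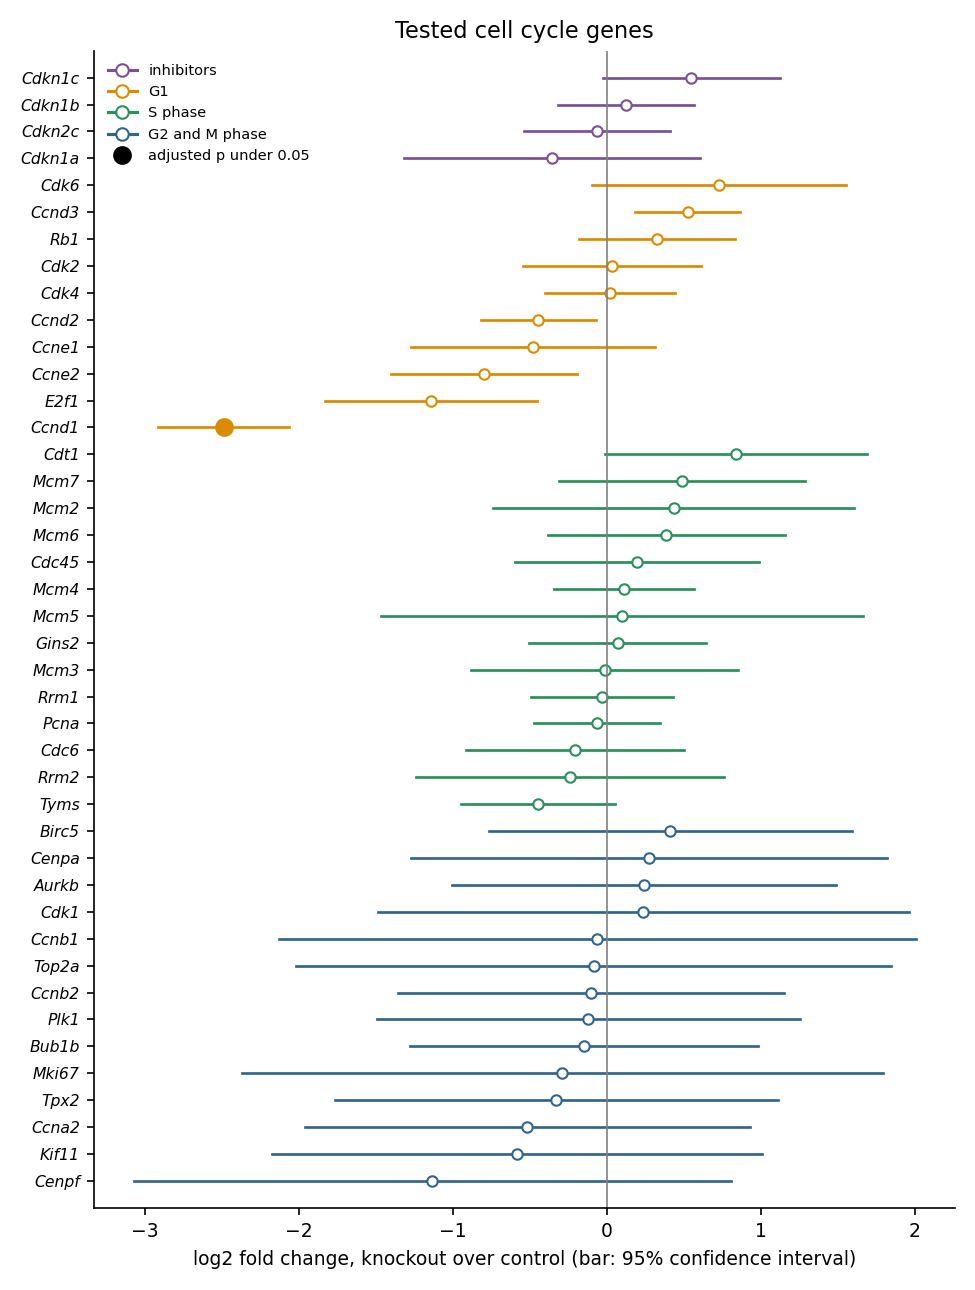
Log2 fold change of each tested cell cycle gene, knockout over control (horizontal axis), with its 95% confidence interval from limma, grouped by role. Ccnd1, at -2.49, is the filled point; the intervals of the G2 and M phase genes are the widest of the 4 groups, with a median standard error of 0.64 against 0.23 in G1.

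Ccnd1 (ENSMUSG00000070348, chromosome 7, 144929931 to 144939925 on the minus strand of GRCm38) had normalized counts of 504, 342 and 468 in the knockouts, against 2268, 2585 and 2557 in the controls. The groups lay far apart, the highest knockout library at 504 and the lowest control at 2268. The mean was 438 ± 85.4 in knockouts and 2469.7 ± 175 in controls (SD, n = 3 each). On the log2 scale this was a difference of -2.49 ± 0.18 (SE; limma adjusted p = 0.000831), a 5.64-fold lower mean, and the unadjusted p stood at rank 27 among the 15935 genes. It remained called under each of 15 other settings, including each fit that left out 1 library, with log2 fold changes between -2.60 and -2.17.

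The other D-type cyclins did not pass the test, and their values went in different directions. Ccnd2, which encodes cyclin D2, had 3150.6, 3381 and 3886 in the knockouts and 4467, 4554 and 5139 in the controls. Its groups did not overlap, at a log2 fold change of -0.44 ± 0.16 (adjusted p = 0.153). Ccnd3, the cyclin D3 gene, had 1454, 1398 and 1238 in the knockouts and 983, 998 and 852 in the controls. Every knockout value of Ccnd3 was above every control value, with a log2 fold change of 0.53 ± 0.15 (adjusted p = 0.0812). Ccnd3 was called higher when all libraries were rescaled to a common total (0.85 ± 0.19, adjusted p = 0.0318) and with a weight for each library (0.52 ± 0.13, adjusted p = 0.0371). With the common total, 1057 of all tested genes were called higher, against 657 as deposited. When that total left out Col1a1, Col1a2 and Col3a1, Ccnd3 was not called (0.52 ± 0.14, adjusted p = 0.0649).

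Summed over the 3 genes, D-type cyclin transcripts stood at 5274 ± 276 normalized counts in knockouts and 8134 ± 415 in controls (SD, n = 3 each; exact 2-sided permutation p = 0.1, the smallest that 3 against 3 can give). Ccnd1 made up 9.87%, 6.67% and 8.37% of this sum in S5, S6 and S7, against 29.4%, 31.8% and 29.9% in the controls. Ccnd3 made up 28.5%, 27.3% and 22.1% of it in the knockouts and 12.7%, 12.3% and 9.97% in the controls. Ccnd2 was the largest share in all 6 libraries, at 61.7% to 69.5% in knockouts and 56.0% to 60.1% in controls. The ratio of Ccnd1 to Ccnd3 was 0.323 ± 0.0699 in knockouts and 2.63 ± 0.350 in controls (exact 2-sided permutation p = 0.1, likewise the smallest possible; 0.1 after Benjamini-Hochberg adjustment over the 6 measures of these genes). These shares and ratios were chosen after the values were seen, and they are shares of normalized counts, which depend on transcript length.

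**Figure D2:**
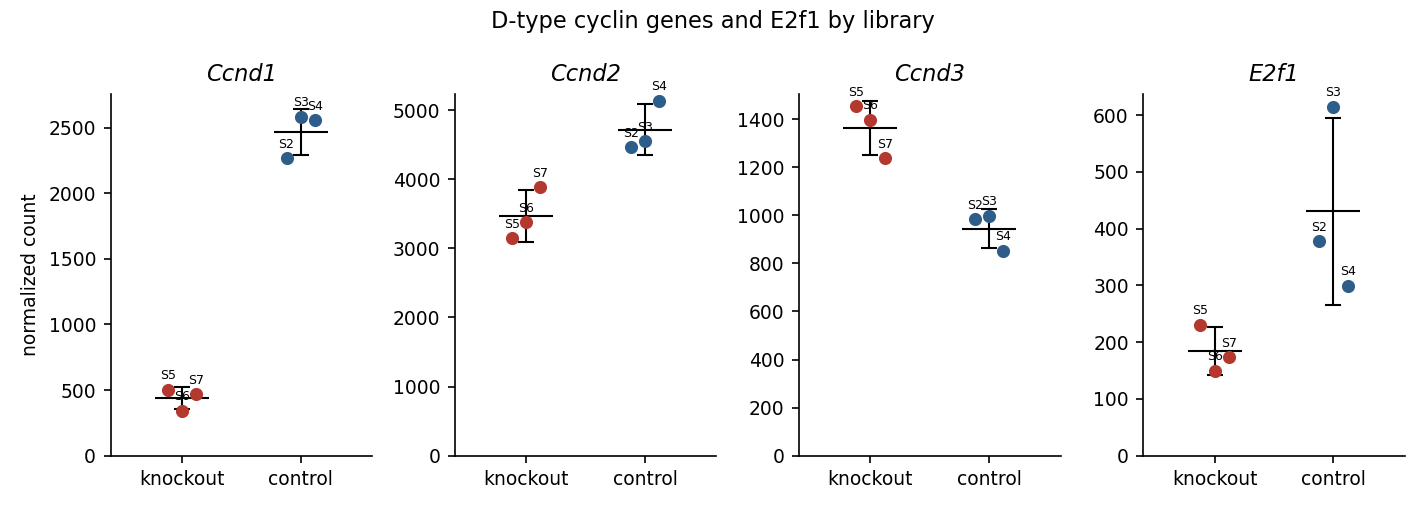
Normalized counts (vertical axes, from 0) of Ccnd1, Ccnd2, Ccnd3 and E2f1 in the 3 knockout and 3 control libraries; points are libraries, the long bar is the mean and the error bar its SD. The groups do not overlap in any of the 4 panels, and Ccnd3 alone of these genes is higher in the knockout, by 0.53 on the log2 scale without passing the test.

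The kinase partners of the D-type cyclins showed no called difference. Cdk4 had 1407, 1096 and 1523 in the knockouts and 1399.6, 1131 and 1415 in the controls. The groups covered the same range (log2 fold change 0.02 ± 0.18, 95% interval -0.40 to 0.44, adjusted p = 0.957). Cdk6 had 1087, 848 and 1552 in the knockouts and 654, 436 and 1085 in the controls, with overlap (0.73 ± 0.35, adjusted p = 0.268). Cdk2, the partner of E-type cyclins, had an interval of -0.54 to 0.61 (adjusted p = 0.950).

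E2f1, a transcription factor of S phase entry, had 230.4, 149 and 173 in the knockouts and 377, 615 and 299 in the controls. All knockout values were below all control values, but the difference did not pass the test (log2 fold change -1.14 ± 0.29, adjusted p = 0.0648). It was called lower without control S4 (-1.36 ± 0.29, adjusted p = 0.0373), with library weights (-1.04 ± 0.25, adjusted p = 0.0345) and after rescaling to a common total that left out Col1a1, Col1a2 and Col3a1 (-1.14 ± 0.24, adjusted p = 0.0340). These were 3 of the 15 other settings. As S4 was the lowest control for E2f1, leaving it out had to widen the difference. Ccne2, which encodes cyclin E2, also had separated groups, with 31.4, 50.5 and 45.5 in the knockouts and 73.0, 77.2 and 88.6 in the controls (-0.80 ± 0.26, adjusted p = 0.121). Its relative Ccne1 overlapped between the groups (-0.48 ± 0.34, adjusted p = 0.443), as did the retinoblastoma gene Rb1 (0.33 ± 0.22, adjusted p = 0.411). Ccnd3, Cdk6, Cdk2, E2f1, Ccne1, Ccne2 and Rb1 are given here after their values were seen. Over the 10 G1 genes, 5 log2 fold changes were positive and 5 negative, with a median of -0.21. With a common total this median was 0.11, while that of all tested genes shifted to 0.31, and with a filter of 5 per 1000000, which 8 of the 10 passed, it was 0.03.

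None of the 4 inhibitor genes changed by the limma test, and 0 of them had an unadjusted p under 0.05. Cdkn1a, which encodes p21, a target of p53, had 2189.7, 4824 and 2648 in the knockouts and 5032, 5313 and 2202 in the controls. High and low libraries occurred in both groups (log2 fold change -0.36 ± 0.41, adjusted p = 0.653). Cdkn1b, the gene of p27, had 2802, 2693 and 1926 in the knockouts and 2428, 2036 and 2265 in the controls, a narrow spread in both groups (0.12 ± 0.19, 95% interval -0.31 to 0.56, adjusted p = 0.739). Cdkn1c, an imprinted gene that encodes p57, had 1016, 1164 and 1303 in the knockouts and 715, 602 and 1135 in the controls. Control S4 was the 1 library of its group within the knockout range. Over all 6 libraries the difference was 0.55 ± 0.25 (adjusted p = 0.236), and without control S4 it was 0.81 ± 0.18 and was called higher (adjusted p = 0.0460). As S4 was the highest control, leaving it out had to raise the difference, and that call is no result about the gene. Of the 15 other settings it was the 1 that called Cdkn1c, with limma adjusted p up to 0.486. Cdkn2c, which encodes the Cdk4 and Cdk6 inhibitor p18, had 150.4 to 188 in knockouts and 151 to 199.5 in controls (-0.06 ± 0.20, adjusted p = 0.882).

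Genes of S phase and of G2 and M phase showed 0 called differences in limma, and 0 had an unadjusted p under 0.05, while control S4 stood apart from its group. For all 17 G2 and M phase genes and for 9 of the 14 S phase genes, control S4 was the highest of the 6 libraries, as it was for 15.1% of all tested genes. It was over 2 times the mean of controls S2 and S3 for all 17 and for 7 of the 14, where 8.87% of all tested genes were. The normalized counts of the 17 summed to 824, 535 and 1311 in the knockouts and to 444, 538 and 3622 in the controls. The 14 S phase genes summed to 3089.6, 3149 and 3822 in the knockouts and to 2838, 2656 and 4277 in the controls. Among the knockouts, S7 was the highest for 13 of the 17 and 11 of the 14 genes, and this held for 39.3% of all tested genes.

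**Figure D3:**
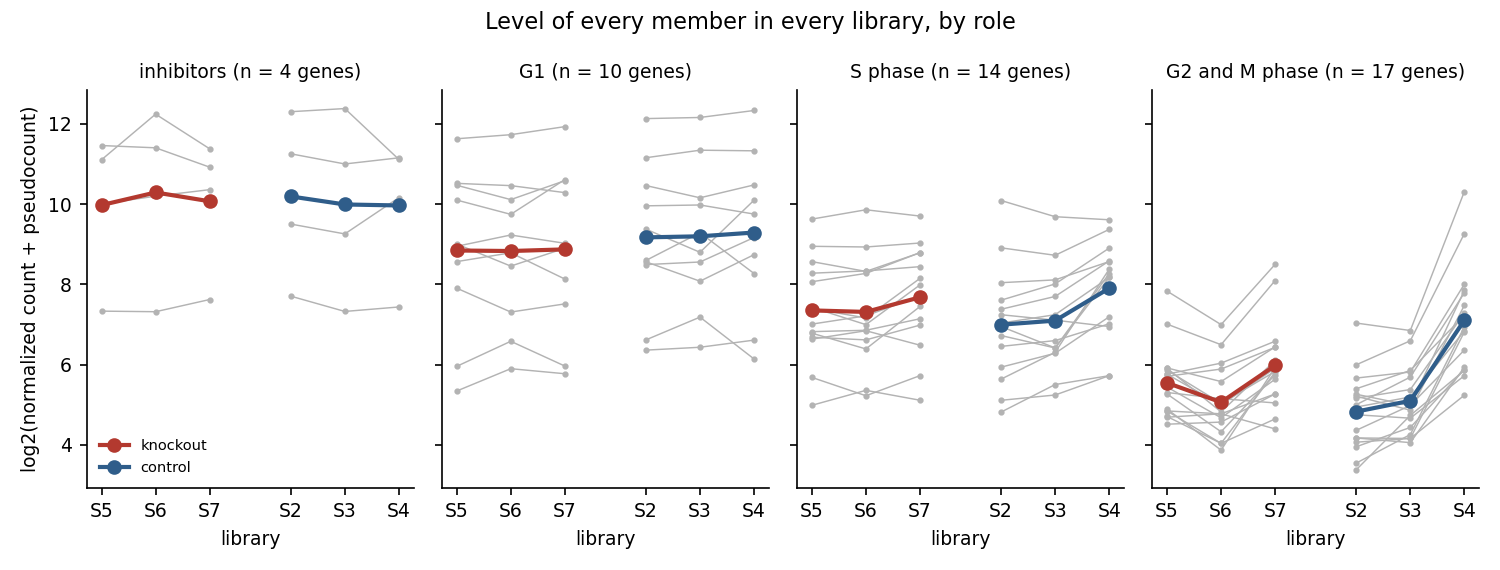
Log2(normalized count + 9.15) of every member (grey points, with a grey line joining the libraries of 1 gene within a group) and their mean (coloured) in knockouts S5 to S7 and controls S2 to S4, in 1 panel per role. Mean levels of the G1 genes lie between 8.83 and 8.87 in knockouts and between 9.17 and 9.29 in controls. This mean includes Ccnd1 (log2 fold change -2.49) and E2f1 (-1.14), and 5 of the 10 G1 genes had positive fold changes. It therefore shows no common fall of the list. Control S4 stands at 7.11 in the G2 and M phase panel against 4.83 and 5.10 in controls S2 and S3.

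The promoters of the genes that were high together in control S4 are shown for 5 of them, 3 of G2 and M phase and 2 of S phase. Each window runs from 250 bases before to 50 bases after the start of the gene, from RefSeq on GRCm38.p6, which held 35 of the 45 members. Capitals mark 3 kinds of word on either strand: the cell cycle homology element TTTGAA, the CCAAT box CCAAT, and the E2F words TTTCCCGC and TTTGGCGC. The homology element and the CCAAT box are known from G2 and M phase promoters, and E2F words from promoters of replication genes.
Mki67 (chr7:135716330-135716629, minus strand): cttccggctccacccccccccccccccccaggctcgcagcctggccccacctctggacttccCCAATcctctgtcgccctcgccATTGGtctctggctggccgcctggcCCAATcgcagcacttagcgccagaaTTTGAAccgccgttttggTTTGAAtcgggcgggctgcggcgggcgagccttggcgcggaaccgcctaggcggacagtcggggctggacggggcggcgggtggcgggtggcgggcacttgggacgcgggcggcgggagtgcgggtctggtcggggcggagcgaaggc
Ccnb2 (chr9:70421505-70421804, minus strand): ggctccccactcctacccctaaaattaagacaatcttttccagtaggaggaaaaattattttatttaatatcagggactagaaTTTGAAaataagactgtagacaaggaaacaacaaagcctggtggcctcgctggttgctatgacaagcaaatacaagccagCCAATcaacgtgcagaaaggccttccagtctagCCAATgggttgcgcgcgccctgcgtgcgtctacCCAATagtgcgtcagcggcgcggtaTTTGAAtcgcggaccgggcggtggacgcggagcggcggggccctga
Cdk1 (chr10:69352863-69353162, minus strand): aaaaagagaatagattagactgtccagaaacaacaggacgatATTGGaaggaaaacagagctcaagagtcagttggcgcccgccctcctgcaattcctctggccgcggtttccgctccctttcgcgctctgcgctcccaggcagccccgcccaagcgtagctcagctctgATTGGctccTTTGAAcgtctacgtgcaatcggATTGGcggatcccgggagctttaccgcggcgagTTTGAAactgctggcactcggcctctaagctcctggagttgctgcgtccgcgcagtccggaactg
Mcm5 (chr8:75109259-75109558, plus strand): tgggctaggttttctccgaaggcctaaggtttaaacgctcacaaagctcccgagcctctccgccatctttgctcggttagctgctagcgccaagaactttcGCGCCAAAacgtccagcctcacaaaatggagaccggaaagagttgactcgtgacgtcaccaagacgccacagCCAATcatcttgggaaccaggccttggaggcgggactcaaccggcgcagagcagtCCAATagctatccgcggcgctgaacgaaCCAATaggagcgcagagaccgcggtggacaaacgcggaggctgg
Mcm6 (chr1:128359656-128359955, minus strand): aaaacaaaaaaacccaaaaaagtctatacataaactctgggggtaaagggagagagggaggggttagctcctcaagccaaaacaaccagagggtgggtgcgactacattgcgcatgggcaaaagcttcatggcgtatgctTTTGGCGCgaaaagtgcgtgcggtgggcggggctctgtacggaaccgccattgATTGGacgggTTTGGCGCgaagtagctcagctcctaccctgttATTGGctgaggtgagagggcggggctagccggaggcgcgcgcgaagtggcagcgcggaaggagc

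The homology element stood in 78.6% of the 14 windows of G2 and M phase genes, and in 17.9% of all 32851 windows of the RefSeq table. Each of those 11 G2 and M phase windows also held a CCAAT box, and both words together occurred in 6.95% of all windows. The CCAAT box was not particular to that phase: it stood in 92.9% of G2 and M phase windows, 76.9% of S phase windows and 37.4% of all windows. An E2F word stood in 46.2% of the 13 windows of S phase genes, in 0 of the 14 G2 and M phase windows and in 1.56% of all windows. The 5 windows printed each hold the words named for their phase, which not every window of these lists does. A match of letters describes the sequence only and shows no binding, and no words overlapped in the 5 windows printed.

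Mki67, the gene of the proliferation antigen Ki-67, had normalized counts of 219, 118 and 352 in the knockouts, against 122, 106 and 1261 in the controls. All 3 knockouts lay within the range of the controls, which S4 set at its upper end (log2 fold change -0.29 ± 0.89, 95% interval -2.37 to 1.79, adjusted p = 0.879). Top2a, which encodes the topoisomerase that untangles replicated DNA, had 119.6, 81.1 and 264 in the knockouts and 54.6, 87.4 and 606 in the controls. The knockouts again lay within the control range, with an interval of -2.02 to 1.85 (adjusted p = 0.965). Ccna2, the cyclin A2 gene, had 51.3, 38.6 and 77.7 in the knockouts and 41.6, 47.2 and 248 in the controls (-0.52 ± 0.62, adjusted p = 0.667). With intervals spanning about 2 log2 units on either side for Mki67 and Top2a, neither a rise nor a fall of that size could be told from no change.

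The mitotic kinase gene Cdk1 and its cyclin partner Ccnb1 were among the rarest members and are named after their values were seen. Cdk1 had 34.3, 16.4 and 40.6 normalized counts in the knockouts and 7.62, 8.74 and 103 in the controls. Ccnb1 had 17.0, 7.29 and 47.0 in the knockouts and 2.54, 9.99 and 114 in the controls. The value of Ccnb1 in control S2 stands for 2 estimated reads, with an exact 95% Poisson interval of 0.242 to 7.22, and that in control S4 for 135 reads, with an interval of 113 to 160. The intervals of S2 and S4 do not overlap, and they cover counting error only. The spindle and kinetochore genes Bub1b, Plk1, Aurkb, Birc5, Cenpa, Cenpf, Kif11 and Tpx2 and the cyclin gene Ccnb2 had log2 fold changes between -1.13 (Cenpf) and 0.41 (Birc5). The adjusted p-values of the 14 tested genes of this phase were 0.461 to 0.974.

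Among the S phase genes, Pcna, the sliding clamp of DNA polymerase, had 780.1, 918 and 823 in the knockouts and 1079, 814 and 771 in the controls. It varied little and was not highest in S4 (log2 fold change -0.07 ± 0.18, 95% interval -0.48 to 0.34, adjusted p = 0.857). Rrm1, the large subunit of ribonucleotide reductase, had 484, 479 and 513 in the knockouts and 471, 413 and 652 in the controls (-0.03 ± 0.20, adjusted p = 0.943). Mcm6, a subunit of the replicative helicase, had 369.7, 311 and 432 in the knockouts and 186, 248.6 and 469 in the controls (0.39 ± 0.33, adjusted p = 0.533). In controls the spread of Mcm6 covered that of the knockouts. The other helicase genes Mcm2, Mcm3, Mcm4, Mcm5 and Mcm7 had log2 fold changes between -0.01 (Mcm3) and 0.49 (Mcm7), and the loading and firing factors Cdc6, Cdc45 and Gins2 between -0.21 (Cdc6) and 0.20 (Cdc45). Rrm2, the small subunit of ribonucleotide reductase, had -0.24 ± 0.43 (adjusted p = 0.784). Cdt1, which loads the helicase, had the highest value of the list (0.84 ± 0.37, adjusted p = 0.221). Tyms, whose enzyme makes thymidylate, was the 1 S phase gene with separated groups, lower in the knockout (-0.45 ± 0.21, adjusted p = 0.266). Cdt1 and Tyms are named after their values were seen.

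Control S4 was the highest library for all 17 G2 and M phase genes and 9 of the 14 S phase genes. Leaving it out therefore had to raise the fold changes of these genes, and that direction is no result about them. Leaving out control S4 turned the direction of the G2 and M phase genes. Their median log2 fold change was -0.11 with all 6 libraries, where 4 of 14 were positive, and 0.66 without S4, where 13 of 14 were positive. The S phase median was 0.09 with all libraries and 0.30 without S4, and it lay between -0.06 and -0.05 without knockout S7, control S2 or control S3. The median of all tested genes was 0.01 with all libraries and 0.03 without S4. None of the 28 genes was called without S4 either, the lowest adjusted p being 0.05998 for Cdt1, and 7 of the 28 had an unadjusted p under 0.05, where 25% of all genes tested in that fit did. Without S4, all 3 knockouts lay above both remaining controls for 8 of 14 S phase and 4 of 14 G2 and M phase genes, where 24.2% of all genes tested in that fit did so. S4 was highest for 15.1% of all tested genes, so that share is not a like background for these lists. Without knockout S6 the G2 and M phase median was also positive, at 0.14, and without control S2 it was -0.56. With a common total it was 0.10, below the 0.31 of all tested genes in that scaling, and with library weights it was 0.29.

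**Figure D4:**
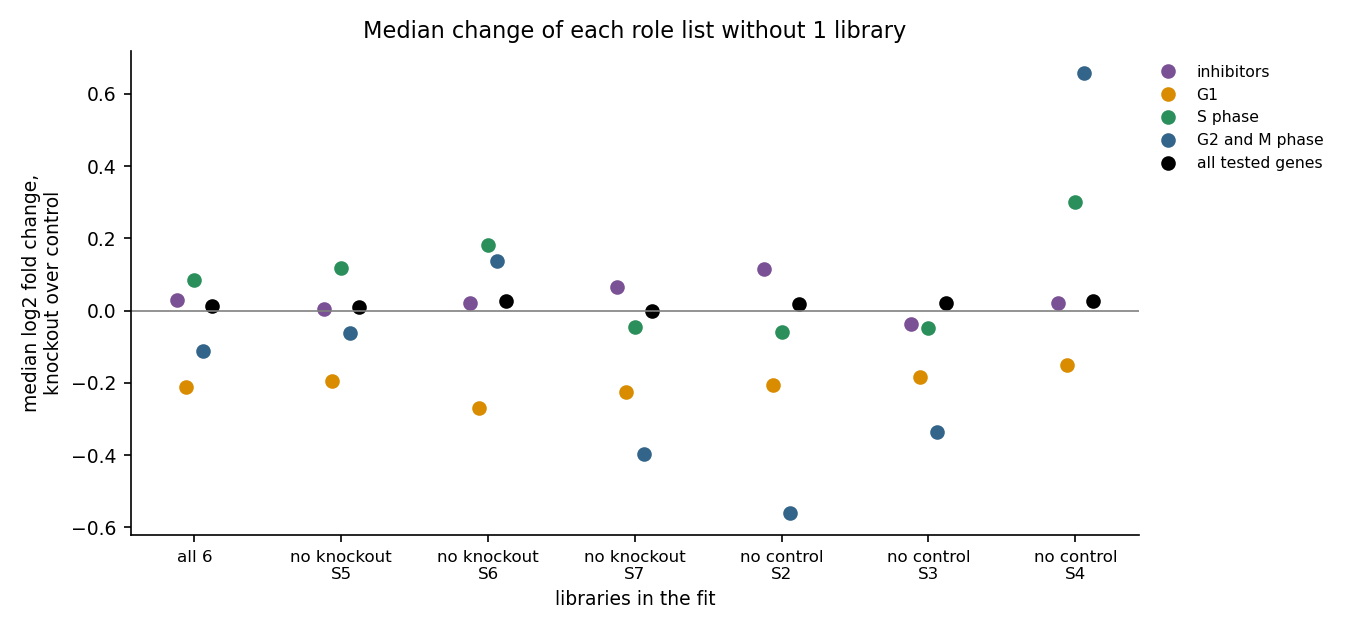
Median log2 fold change, knockout over control (vertical axis), of the tested members of each role and of all tested genes, with all 6 libraries and without each library in turn (horizontal axis). The G2 and M phase median moves between -0.56 without control S2 and 0.66 without control S4, while the G1 median stays between -0.27 and -0.15.

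Markers of other cells differed in the same libraries. Of 9 hair matrix and shaft genes, 8 were measured, and all 8 were highest in control S4. They summed to 76.6 to 98.1 in the knockouts and to 245, 117 and 2371 in the controls. Krt31 and Krt35 were at 0 in all 3 knockouts, while control S4 had 27.8 of Krt31, 128 of Krt35, 1059 of the inner root sheath keratin gene Krt71 and 272 of the hair regulator gene Hoxc13. All 7 basal keratinocyte markers were measured, and they summed to 3559, 3202 and 23213 in the knockouts and to 5616, 733 and 24662 in the controls. The 3 leukocyte markers Ptprc, Coro1a and Cd52 summed to 238, 963 and 1971 in the knockouts and to 77.5, 60.0 and 809 in the controls. The 7 T cell markers summed to 96.4, 571 and 929 in the knockouts and to 54.2, 36.2 and 407 in the controls. All 4 skeletal muscle markers were highest in S4, and their sums were 543 to 1245 in the knockouts and 852, 4474 and 8798 in the controls. Libraries S4 and S7 thus led their groups in the G2 and M phase sum and in the basal keratinocyte, leukocyte and T cell sums. They also did so in the sums of suprabasal keratinocyte, upper hair follicle, macrophage, neutrophil, endothelial and skeletal muscle markers. Being highest in both groups was therefore not particular to a few cell types. In the hair matrix sum, S4 alone led its group. Other lists had another order. The sebocyte markers summed to 10741, 14243 and 51212 in the knockouts and to 8866, 9758 and 8562 in the controls, and the adipocyte markers to 148, 429 and 1647 in the knockouts and to 69.9, 126 and 28.6 in the controls, with S4 the lowest control in both. The mast cell markers summed to 1225, 3334 and 1247 in the knockouts and to 44.5, 55.0 and 614 in the controls, with S6 the highest knockout. The part of these cells in the levels of the cell cycle genes was not tested. Beside Ccnd1, lower in every knockout than in every control, Col1a1, Col1a2, Col3a1, Ckm, Myh4, Ttn, Tchh, Krt25, Krt35 and Krt10 among the markers were separated the same way, and of these Krt10 passed the test (adjusted p = 0.0496). The part of other cells in the level of Ccnd1 was not tested either.

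**Figure D5:**
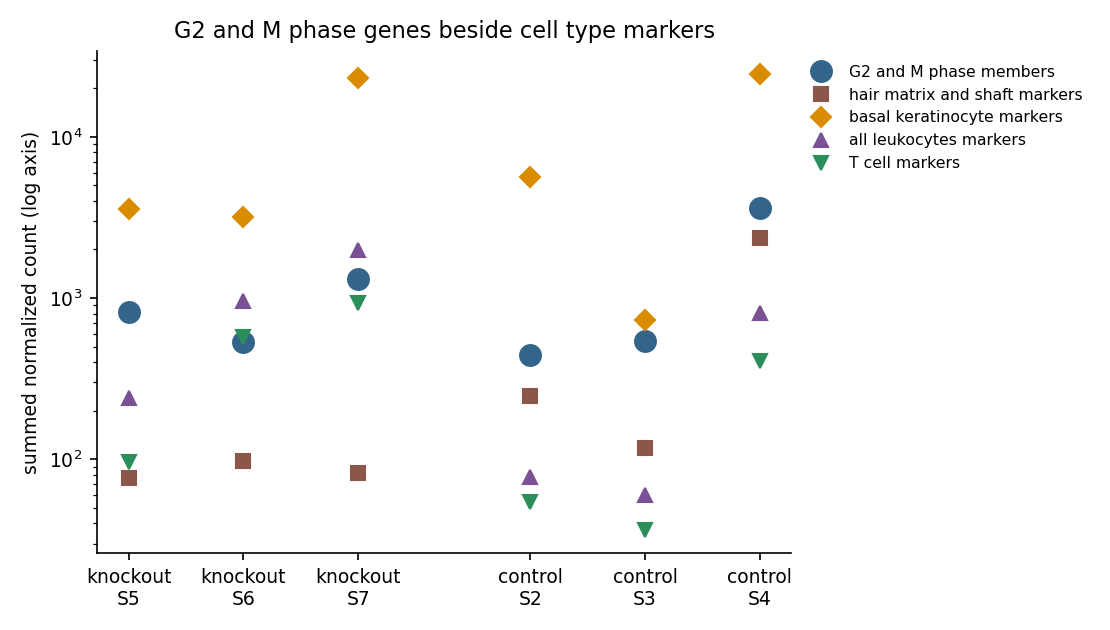
Summed normalized counts (log axis) of the 17 G2 and M phase genes and of 4 marker lists in the knockouts and controls S2, S3 and S4. Control S4 is highest for the G2 and M phase sum (3622) and the hair matrix and shaft sum (2371), and the knockouts lie between 76.6 and 98.1 for the hair matrix and shaft sum.

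Beyond the 45 genes, 108 others of the cell cycle were examined, of which 92 passed the filter, and 1 fell and 0 rose. Of all tested genes, 2.59% were called lower and 4.12% higher. Their median log2 fold change was -0.03, and 17 of the 92 had an unadjusted p under 0.05, against the 23.2% of all tested genes. The 1 was Rbl1 (ENSMUSG00000027641, chromosome 2, 157145893 to 157204534 on the minus strand of GRCm38), which encodes the pocket protein p107, a relative of the retinoblastoma protein and itself a target of E2F. It had 108, 111 and 138 in the knockouts and 219.8, 209.8 and 272 in the controls, with no overlap (log2 fold change -0.92 ± 0.20, adjusted p = 0.0411). Each of the 6 fits that left out 1 library lost this call (adjusted p = 0.0625 to 0.140), and so did those with no filter (adjusted p = 0.0586), with a common total (-0.62, adjusted p = 0.250) and with a common total that left out 3 collagen genes (adjusted p = 0.0740). Its log2 fold change stayed between -1.02 and -0.62.

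In the 4 lists of these other genes the tested counts were 22 for S phase, 28 for G2 and M phase, 25 for regulators of the Rb-E2F and DREAM switch and 17 for inhibitors and p53 targets, with medians of -0.14, -0.12, 0.05 and 0.13. At an unadjusted limma p under 0.05, the regulators had 6 genes higher and 5 lower, and the inhibitors and p53 targets 3 higher and 1 lower. The S phase and the G2 and M phase lists each had 0 higher and 1 lower. Of all tested genes, 23.2% were under that p. Control S4 was the highest library for 21 of 26 S phase and 35 of 38 G2 and M phase genes of these lists. Slbp, which binds histone mRNA, had 269.6 to 429 in knockouts and 373 to 498 in controls (log2 fold change -0.36 ± 0.22, adjusted p = 0.373), and Pola1, a DNA polymerase gene, had 134 to 165 in knockouts and 144 to 229 in controls (-0.23 ± 0.23, adjusted p = 0.591). Prc1 and Racgap1, both needed to split the dividing cell, had log2 fold changes of -0.12 ± 0.30 (adjusted p = 0.849) and 0.60 ± 0.58 (adjusted p = 0.579). Btg2, an antiproliferative p53 target, had 5299 to 13569.9 in knockouts and 6065 to 8758 in controls (0.13 ± 0.35, adjusted p = 0.860), and the stress gene Gadd45b had 2014 to 3791 in knockouts and 933 to 3259.5 in controls (0.45 ± 0.48, adjusted p = 0.621).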

How the data were processed

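The authors deposited 1 table of normalized counts per gene, per the file headers, used here as a signal. From the values, these are estimated reads divided by 1 size factor per library (0.787 to 1.26), with 78.7% to 81.1% of values up to 1000 reads whole within 0.05, so no count model was run. TopHat2 2.1.0 and Partek 9.0.20.0202 appear in the submitters' processing notes, with no role. Build, annotation and strand setting: not given in the sources used here. Overlapping genes are uncertain for that reason. The positions printed come from GENCODE or RefSeq on GRCm38 by gene name or ID.

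The column names show each library's group and fit no single sample title, so libraries go by the S numbers in those names. Whether the libraries come from different mice is not said. The p-values therefore describe only how these 6 samples vary, and part of that may be technical.

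Values were tested as log2(value + 9.15) with limma 3.58.1 in R 4.3.3 (empirical Bayes with trend, 2-sided, 3 against 3 libraries). The added value is 0.5 per 1000000 of the mean library total, and it understates changes of low genes. A gene was called at an adjusted p below 0.05. The fit was tested on simulated data in which gene spreads were shuffled between genes and no library stood apart. Control S4 does so here, and that test is therefore no check on these results. Members and lists were chosen with earlier results of these data known. Values by library are given for called members, for the 3 members of each role with the highest mean, and for up to 4 called genes (or the 2 highest) of each other list; exceptions are named. Intervals on reads cover counting error only. The alternatives were other added values, filters, scalings and variance models, library weights, and leaving out each library.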

Additional observations from a re-analysis of the deposited data

How the results depend on the processing

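The count of cell cycle members called higher, 0 of 42, was 1 with a common total, 1 with library weights and 0 to 1 without 1 library; the count called lower, 1, was 2 with library weights, 2 with a common total that left out 3 collagen genes and 1 to 2 without 1 library. Over all tested genes, 657 were higher and 413 lower; 1057 were higher and 283 lower with a common total, 1132 higher and 865 lower with library weights, and 231 to 684 higher and 92 to 587 lower without 1 library. Of the other cell cycle genes, those called higher numbered 1 with a filter of 5 per 1000000, 2 with a common total, 1 with a robust trend and 2 with library weights. Those called lower numbered 0 with no filter, 0 with either common total, 3 with library weights and 0 to 1 without 1 library. With a common total, the mean log2 level of the inhibitors was 10.29 in knockouts and 9.91 in controls, and that of the G1 genes 9.03 in knockouts and 9.09 in controls, against 8.85 in knockouts and 9.22 in controls as deposited. The G1 levels of the groups then overlapped, with control S3 at 8.71 below the knockouts at 8.97, 9.06 and 9.05. The G1 mean includes Ccnd1, whose log2 fold change was -2.49 as deposited. Ccnd1 was called in all 15 settings. No paired analysis was possible because the value columns carry no replicate number that matches a sample. The count model was not run because only 78.7% to 81.1% of values were whole reads; the log-scale spread between 3 libraries, and few reads for the mitotic genes, limit what can be seen.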

Other observations

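A few genes of growth and arrest outside the 45 had separated groups without passing the test, and are given after their values were seen. Myc, a transcription factor of cell growth, had 3024, 4776 and 3236 normalized counts in the knockouts and 2508, 2024.7 and 1374 in the controls (log2 fold change 0.91 ± 0.27, limma adjusted p = 0.0956). With a common total Myc was called higher (1.23 ± 0.27, adjusted p = 0.0268). In that scaling 1057 of all tested genes were called higher, against 657 as deposited. Gadd45a, a stress gene that binds Cdk1, had 364, 406 and 282 in the knockouts and 192, 105 and 179 in the controls (1.13 ± 0.27, adjusted p = 0.0516). It was called with a filter of 5 per 1000000, a robust trend or library weights (adjusted p = 0.0430, 0.0483 and 0.0294). Cdkn2d, which encodes the inhibitor p19 of Cdk4 and Cdk6, had 213, 305 and 210.0 in the knockouts and 146, 139 and 103 in the controls (0.86 ± 0.23, adjusted p = 0.0773).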
